A study of Homo sapiens with 6 samples.

Results

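The response to doxycycline (dox) was compared over all 6 of 6 libraries of the series, 3 from cells given dox and 3 from the same lines without it. All cells were H1 human embryonic stem cells, an established line, recorded at passages 40 to 60. All carried a short hairpin RNA against EXOSC3 whose transcription is switched on by dox, given at 2 mg/ml as the labels write it. The 3 lines differed in what else they carried. The PB line held an empty vector, and the 2 EXOSC3r lines, clone 1 and clone 2, held an EXOSC3 transgene that the hairpin does not target. There was 1 library per line and condition, so the paired replicates were the 3 lines. Each EXOSC3r line was 1 clone, and the labels do not say whether the PB line was. In such bulk RNA, fewer cells with a transcript and less of it per cell cannot be told apart. No library lacked the hairpin. Effects of dox itself, of hairpin transcription and of an EXOSC3 loss that the transgene does not make good therefore cannot be told apart in a response shared by all 3 lines. EXOSC3 and pluripotency marker genes were not analysed here, so neither the depletion nor the labelled cell type was checked.

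EXOSC3 belongs to the cap of the RNA exosome. This complex breaks RNA down from the 3′ end in the nucleus and the cytoplasm and trims precursors. Among its nuclear substrates are short-lived noncoding transcripts. Repeats make such RNA in several ways. Alpha satellite, the tandem repeat of human centromeres, is transcribed at a low level. HERVH, an endogenous retrovirus, is transcribed in human pluripotent cells from LTR7 elements that act as its promoter. Other long terminal repeats (LTRs), L1 elements and DNA transposons are mostly old copies, many of which lie inside genes and are read as part of their transcripts. Each measured sequence was a repeat consensus, which represents copies spread over the genome and cannot be given 1 position, and reads that fit several consensus sequences had been divided between them by estimation.

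Between 3745262 and 5260196 estimated counts per library were assigned to the 1047 sequences of the tables, which is not the sequencing depth. The levels below are CPM, counts rescaled to a common library total, with TMM scaling, a method that centres most sequences between libraries. A response is the log2 ratio of the CPM with dox to the CPM without dox in a line, with 0.5 CPM added to both. Dox was tested over the 3 lines with edgeR's quasi-likelihood test, the line as a block and Benjamini-Hochberg adjustment at 0.05 over the 699 sequences with at least 10 counts in at least 1 library. The labels do not say that the libraries came from separate cultures in any other way than by line and treatment. The p-values therefore rest on the spread of the response between these 3 pairs of libraries. For each sequence the test joins its own spread with that of all tested sequences, which weighs more (7.22 prior against 2 residual degrees of freedom). Clone 1 with dox stood apart in composition. Alu took 52.5% of its counts, against 33.0% to 45.4% in the other 5 libraries.

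With dox, 12 of the 699 sequences changed over the 3 lines (1.72%), 6 upward (0.858%) and 6 downward (0.858%), and 72 had an unadjusted p under 0.05. The largest changes among the 12 were those of the alpha satellite sequences ALR, ALR1 and ALRb, whose responses in single lines lay between 1.79-fold and 3.27-fold. Among the 12, all moved the same way in each of the 3 lines, and 8 had dox and no-dox libraries that did not overlap. Of all 699 sequences, 32.5% moved the same way in all 3 lines. All dox libraries lay above the others for 55 sequences (7.87%) and below for 40 (5.72%). The 12 were picked by a test on these same values, which favours equal signs and groups without overlap, so nothing is read from their counts. When the line was not used as a block, so that differences between lines counted as error, 0 sequences passed (edgeR, 42 with an unadjusted p under 0.05, adjusted p of the 12 between 0.32 and 0.89). DESeq2 with the line as a block called 9, all among the 12. When a line was left out, 2 pairs of libraries remained, and without clone 1 the fit gave single sequences no spread of their own, so that passing there is not counted below; HERV19I was the 1 call lost there (adjusted p = 0.051).

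ALR, an alpha satellite monomer consensus, went from 186 to 408 CPM in PB cells, from 106 to 211 in clone 1 and from 109 to 253 in clone 2. Each dox library lay above each library without dox, although the PB line started higher than the clones. The mean went from 134 ± 45.1 to 291 ± 104 CPM (SD, n = 3 lines), and the fitted log2 change was 1.12 ± 0.057 (SE; edgeR adjusted p = 5.1e-06). ALR1, another alpha satellite consensus, went from 126 to 327 CPM in PB cells, from 87.2 to 157 in clone 1 and from 92.3 to 189 in clone 2, and its groups did not overlap either. The fitted change was 2.15-fold (log2 1.10 ± 0.090, edgeR adjusted p = 1.8e-04). ALRb was less abundant and went from 34.1 to 113 CPM in PB cells, from 23.5 to 50.1 in clone 1 and from 26.5 to 48.5 in clone 2. It rose 2.39-fold (log2 1.26 ± 0.16, edgeR adjusted p = 0.0032), with responses of 1.71 in PB cells, 1.07 in clone 1 and 0.86 in clone 2. The response in PB cells minus that in the clones was 0.74 ± 0.24 for ALRb (SE, edgeR adjusted p = 0.86), 0.43 ± 0.12 for ALR1 (adjusted p = 0.76) and 0.029 ± 0.12 for ALR (adjusted p = 0.97). That test sets 1 line against 2 clones with 1 residual degree of freedom, so a p that misses the threshold does not show that the lines responded alike. ALR, ALR1 and ALRb were the 3 of the 12 calls that passed under every scaling tried, with DESeq2 and with limma on log2(TPM + 1). ALRb did not pass without the PB line (edgeR adjusted p = 0.086), while ALR and ALR1 passed without the PB line (adjusted p = 0.013 for each) and without clone 2 (8.6e-04 and 0.0084).

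**Figure D1:**
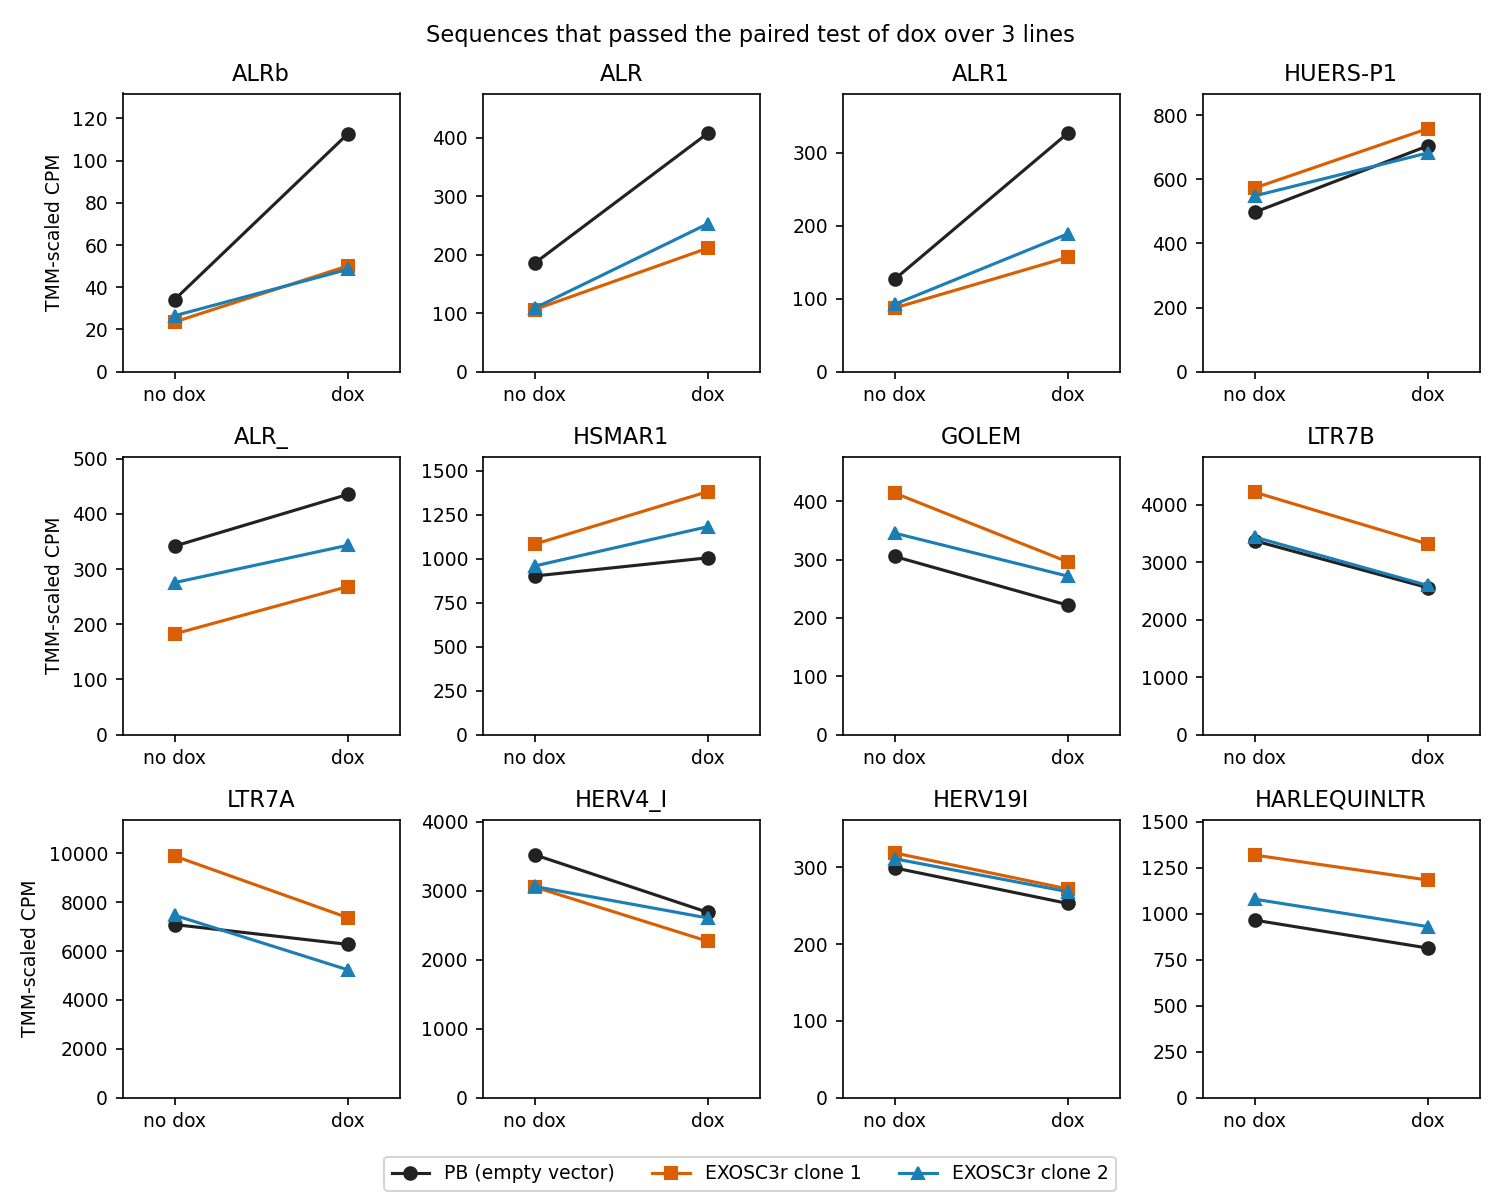
TMM-scaled CPM (linear axis from 0) without and with dox for the 12 sequences that passed the paired test, with 1 line per cell line and 1 point per library. ALR, ALR1 and ALRb go up steeply in all 3 lines, whereas the fitted changes of the other 9 are 1.33-fold or less upward and no lower than 0.742 of the level without dox.

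ALR_, also an alpha satellite, rose by less. It went from 342 to 435 CPM in PB cells, from 183 to 268 in clone 1 and from 276 to 343 in clone 2, so that the groups overlapped, since clone 1 with dox stayed below PB cells without it (log2 0.40 ± 0.054, edgeR adjusted p = 0.0033, and 0.096 without the PB line). ALR2 went from 45.7 to 80.0 CPM in PB cells, from 42.1 to 49.8 in clone 1 and from 37.0 to 53.8 in clone 2, with no overlap between the groups. Its fitted change was 0.54 ± 0.13 (edgeR adjusted p = 0.11), and it passed when only sequences with at least 10 counts in all 6 libraries were tested (adjusted p = 0.041). With TPM values its direction turned in clone 1. ALRa had responses of -0.13 in PB cells, 0.54 in clone 1 and 0.42 in clone 2, so that the PB line went against the clones (edgeR adjusted p = 0.64). ALRa_, the least abundant at a mean of 10.1 CPM, had 0.50 in PB cells, 0.0099 in clone 1 and 1.31 in clone 2 (edgeR adjusted p = 0.46), the clone 1 value being close to 0 and below it with 4 of the 5 other scalings.

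Of the 7 alpha satellite sequences tested, 4 rose and 0 fell, where 0.858% of all 699 rose. In all 3 lines 6 were higher (5 with DESeq2 size factors, total counts or TPM), where 16.6% of all were, and their median fitted change was 0.61, against 0.0046 over all 699. These consensus sequences are near copies of one another, so the division of reads between them is uncertain. Their summed CPM went from 771 to 1401 in PB cells, from 469 to 771 in clone 1 and from 572 to 938 in clone 2. Summed before scaling, the family rose by 0.75 ± 0.05 on the log2 scale (edgeR on 297 tested families, adjusted p = 0.0010). They took a small share of all assigned counts, from 0.0880% to 0.170% in PB cells, from 0.0409% to 0.0574% in clone 1 and from 0.0581% to 0.103% in clone 2. By TPM, a level per length, ALR_ was the most abundant of the 7 (mean 2048 over 6 libraries), followed by ALR (1442), ALR1 (1110.5), ALRb (339), ALR2 (301), ALRa (171) and ALRa_ (63.1). The size of the response did not follow that order, as ALR_ had the smallest rise of the 4 that passed.

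LTR7A and LTR7B, of the LTR7 promoters of HERVH, fell with dox. LTR7B went from 3376 to 2559 CPM in PB cells, from 4221 to 3319 in clone 1 and from 3440.1 to 2597 in clone 2, with all dox libraries below all others and responses within 0.06 of each other (-0.40, -0.35 and -0.41). It fell to 0.766 of its level (log2 -0.38 ± 0.044, edgeR adjusted p = 0.0014). LTR7A went from 7083 to 6271 CPM in PB cells, from 9884 to 7363 in clone 1 and from 7462 to 5230.2 in clone 2, and the groups overlapped because clone 1 with dox lay between the PB and clone 2 levels without it. Its fitted change was -0.37 ± 0.066 (edgeR adjusted p = 0.023). Both calls were lost without clone 2 (adjusted p = 0.12 for LTR7B and 0.32 for LTR7A), with total counts, with ACTB and GAPDH scaling and with limma on TPM, and with deposited TPM values LTR7A was higher with dox in PB cells.

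The other members of the HERVH and LTR7 list showed where the lines part. LTR7Y, a subgroup of LTR7, went from 5445 to 5267 CPM in PB cells, from 5928 to 4526 in clone 1 and from 5401 to 4112 in clone 2. Its response was near 0 in PB cells and about equal in the clones (-0.048, -0.39 and -0.39), its groups did not overlap, and the fitted change was -0.28 ± 0.070 (edgeR adjusted p = 0.11). HERVH itself, the internal part of the provirus, went from 28393 to 35679 CPM in PB cells, from 27573 to 20520.3 in clone 1 and from 28169.9 to 21047 in clone 2. It thus moved up in the PB line and down in the clones, and the fitted change over 3 lines was -0.17 ± 0.13 (edgeR adjusted p = 0.71). Without the PB line, HERVH (-0.43) and LTR7Y (-0.39) both passed (edgeR adjusted p = 0.013 for each). LTR7C, at 94.9 CPM, had small responses of -0.088, -0.10 and -0.25. In all, 2 of the 5 passed downward and 0 upward, beside 0.858% of all 699 in each direction. The 4 that were lower in all 3 lines stand beside 15.9% of all, and the median fitted change was -0.28. That count of 4 became 3 with total counts, 2 with ACTB and GAPDH scaling and 1 with TPM. It is a count of names and not of RNA. The summed CPM of the 5 rose from 44394 to 49868 in PB cells. In clone 1 the sum fell from 47718 to 35832 and in clone 2 from 44564 to 33063 (log2 0.17, -0.41 and -0.43).

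Among 72 other tested sequences with names of human endogenous retroviruses (HERVs), mostly internal parts, 1 rose and 3 fell, beside 0.858% of all 699 in each direction. HUERS-P1, a retrovirus-like element with an internal region, went from 497 to 704 CPM in PB cells, from 573 to 758 in clone 1 and from 548 to 682 in clone 2. All dox libraries lay above the others (log2 0.41 ± 0.047, edgeR adjusted p = 0.0014), and it passed without the PB line (adjusted p = 0.028) and without clone 2 (0.021). With TPM its response in clone 1 was 0.0011. The sequences with related names did not do the same: HUERS-P2 had responses of 0.014, -0.34 and -0.21, HUERS-P3 of 0.061, 0.20 and -0.070 and HUERS-P3B of 0.33, 0.17 and 0.092 (edgeR adjusted p = 0.13 for the last). These 3 were picked for their names after their values were seen.

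HERV4_I, an internal sequence, went from 3520.5 to 2686 CPM in PB cells, from 3053 to 2267 in clone 1 and from 3061 to 2604 in clone 2. The groups did not overlap (log2 -0.35 ± 0.051, edgeR adjusted p = 0.0060), but the call was lost without the PB line (adjusted p = 0.096) and without clone 2 (0.067). HERV19I had the most even responses of the 12 (-0.24, -0.23 and -0.21). It went from 299 to 253 CPM in PB cells, from 319 to 272 in clone 1 and from 311 to 268 in clone 2, with no overlap (log2 -0.23 ± 0.042, edgeR adjusted p = 0.025), and it did not pass with any line left out (adjusted p between 0.051 and 0.22). HARLEQUINLTR, the LTR of the Harlequin elements, went from 965 to 813 CPM in PB cells, from 1318 to 1182 in clone 1 and from 1079 to 929 in clone 2, and its groups overlapped. Its change of -0.21 ± 0.042 was the smallest that passed (edgeR adjusted p = 0.047), and it was lost without the PB line (0.21) and without clone 2 (0.32). HARLEQUIN, the internal part, had responses of 0.11, 0.024 and 0.052 and did not fall with its LTR; LTR19A, by name the LTR of the HERV19 group, had -0.17, -0.023 and -0.13. HARLEQUIN and LTR19A were also picked by name after their values were seen.

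Of 56 sequences listed by name as DNA transposons other than those with MER names, 1 rose and 1 fell, a share near the 0.858% of all 699 in each direction. HSMAR1, a mariner element whose transposase survives in the human gene SETMAR, went from 903 to 1006 CPM in PB cells, from 1084 to 1383 in clone 1 and from 959.6 to 1183 in clone 2. The groups overlapped (log2 0.27 ± 0.049, edgeR adjusted p = 0.024), and the call was lost without clone 2 (adjusted p = 0.31) and with DESeq2 (0.057). With TPM values the direction turned in clone 1. HSMAR2, the other mariner consensus of this name, had responses of -0.0015, 0.17 and -0.035. GOLEM went from 305 to 222 CPM in PB cells, from 414 to 296 in clone 1 and from 345 to 272 in clone 2, with all dox libraries below the others. It was the deepest fall that passed (log2 -0.43 ± 0.046, edgeR adjusted p = 0.0012) and passed without the PB line (adjusted p = 0.028) and without clone 2 (0.012). GOLEM_A had responses of 0.18, 0.074 and 0.14, opposite in sign to GOLEM in all 3 lines with TMM scaling (edgeR adjusted p = 0.24). Summed before scaling, the 4 names of the GOLEM family had responses of only -0.047, -0.16 and -0.043. The fitted change of that sum was -0.082 ± 0.040 (edgeR on 297 tested families, adjusted p = 0.60). HSMAR2 and GOLEM_A were picked by name after their values were seen.

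The 9 calls other than ALR, ALR1 and ALRb depended on the scaling. None of the 9 passed with total counts, with scaling to ACTB and GAPDH or with limma on log2(TPM + 1). That limma fit made 12 calls, of which 3 were among the 12 here. All 9 passed with DESeq2 size factors, and 6 of the 9 passed with DESeq2. Under the 6 ways of scaling tried, 10 of the 12 kept their direction in all 3 lines; the exceptions were HSMAR1 in clone 1 and LTR7A in PB cells, both with TPM. Some kept directions came close to 0 under a scaling, such as HUERS-P1 in clone 1 (0.0011), HERV19I in PB cells (-0.012) and HARLEQUINLTR in PB cells (-0.029).

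**Figure D2:**
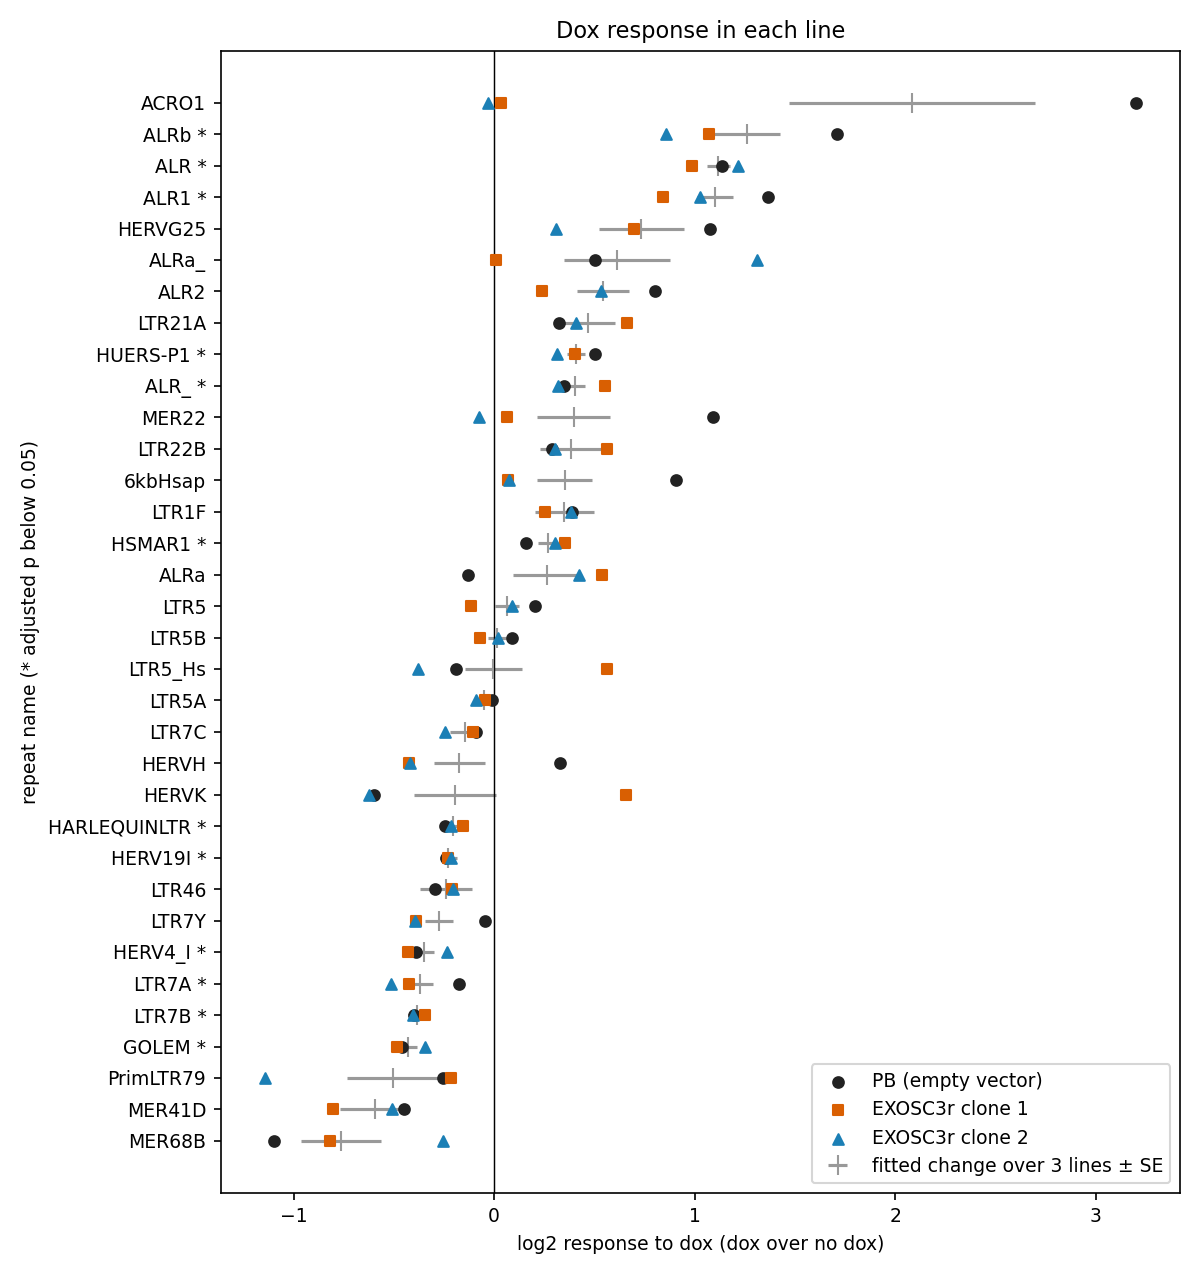
Log2 response to dox in each line (points) with the fitted change over the 3 lines ± SE (grey) for named repeats, ordered by fitted change. Asterisks mark the 12 with an adjusted p below 0.05; for ACRO1, MER22, 6kbHsap, HERVH and HERVK the points of the 3 lines lie far apart.

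Beyond the calls, 8 less abundant sequences were named by the smallest of their 3 responses. LTR21A had 0.32, 0.66 and 0.41, HERVG25 1.07, 0.70 and 0.31, LTR22B 0.29, 0.56 and 0.30 and LTR1F 0.39, 0.25 and 0.38, all upward in the order PB, clone 1, clone 2. Downward, MER41D had -0.45, -0.80 and -0.51, MER68B -1.10, -0.82 and -0.26, PrimLTR79 -0.26, -0.22 and -1.15 and LTR46 -0.30, -0.21 and -0.20. These are retroviral LTRs or internal parts by name, with means between 11.8 and 33.9 CPM. None passed (edgeR adjusted p between 0.13 and 0.58), and 5 of the 8 had groups that did not overlap. They were picked for moving alike, which favours groups without overlap, so nothing is read from that count beside the 7.87% of all above and 5.72% below. MER68B passed with total counts (adjusted p = 0.041). With TPM, LTR1F turned to -0.12 in clone 1.

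Over all 699 sequences with TMM scaling, 227 moved the same way in all 3 lines (32.5%), 116 upward (16.6%) and 111 downward (15.9%). The other 472 did not. These shares depended on the scaling, with 9.44% upward and 9.73% downward under total counts and 6.87% and 5.44% under TPM. With TMM, each of the 6 mixed patterns held between 75 and 82 sequences. The line that went against the other 2 was PB for 154, clone 1 for 154 and clone 2 for 162, so no line was the odd one much more often than another. Agreement did not vary much with abundance: it was 32.5% in the 126 sequences with a mean under 30 counts, 30.4% in the 260 with 100 to 1000 counts, and 37.2% in the 183 with at least 1000 counts. Of the 227, 12 passed the test and 66 had an unadjusted p under 0.05, while 6 of the 472 mixed sequences did. The test uses the same 3 responses whose signs define these classes, so nothing is read from that contrast.

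**Figure D3:**
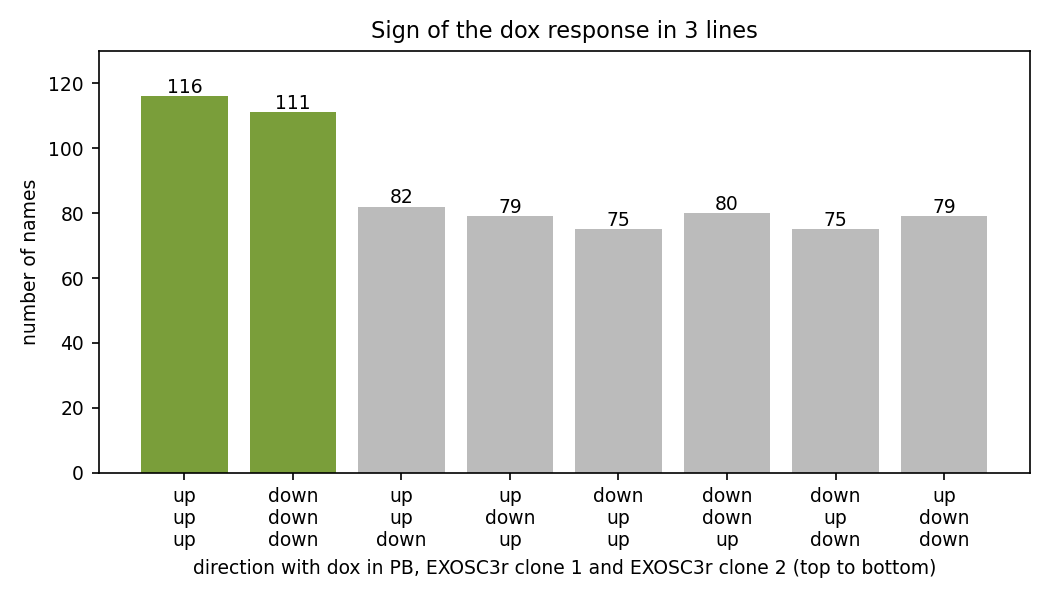
Number of sequences (of 699) with each combination of directions in PB cells, clone 1 and clone 2; 2 sequences with a response of exactly 0 in a line are not drawn. The patterns with 3 equal signs hold 116 and 111 sequences, and the mixed patterns 75 to 82.

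Most shared signs were small. The median of the smallest of the 3 responses was 0.0914 among the sequences higher in all 3 lines and 0.0657 among those lower. When each response had to be at least 0.25, 16 sequences were higher (2.29%) and 13 lower (1.86%). In the single lines, between 109 and 141 sequences were past this size upward and between 100 and 107 downward, so those shared by all 3 lines made up 11.3% to 14.7% of each line's upward list and 12.1% to 13.0% of its downward list. At 0.5 the upward set was ALR, ALR1 and ALRb (0.429%). The downward set of equal size held the scarce Tigger12, L1P4b_5end and MER103C, with means of 4.38, 7.32 and 0.974 CPM. None of them passed (edgeR adjusted p between 0.26 and 0.59), though MER103C passed with limma on log2(TPM + 1). These last 3 were named after their values were seen. No sequence reached 1 in all 3 lines.

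The same counts by kind of repeat are descriptions, with no test of a list. Young L1 elements, the primate subfamilies L1HS and L1PA2 to L1PA7 of which L1HS can still copy itself in humans, had fitted changes between -0.05 and 0.08, and 0 of 8 passed. L1HS, the youngest, had responses of 0.27 in PB cells, 0.020 in clone 1 and -0.052 in clone 2, and L1PA4 of -0.047, -0.10 and -0.018. Of these 8, 3 were lower and 1 higher in all 3 lines, a count that fell to 0 and 0 with total counts, ACTB and GAPDH scaling or TPM. Among 158 LTR sequences in no other list, 37 were higher (23.4%) and 24 lower (15.2%) with 0 passing, but the counts were 17 and 19 with total counts and 12 and 9 with TPM. The HERV-named list had 9 higher (12.5%) and 18 lower (25.0%), which became 12 and 8 with ACTB and GAPDH scaling. Mammalian-wide L1, MaLR, ERVL and MER-named sequences had 0 calls and shares between 9.52% and 20.5% in each direction.

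**Figure D4:**
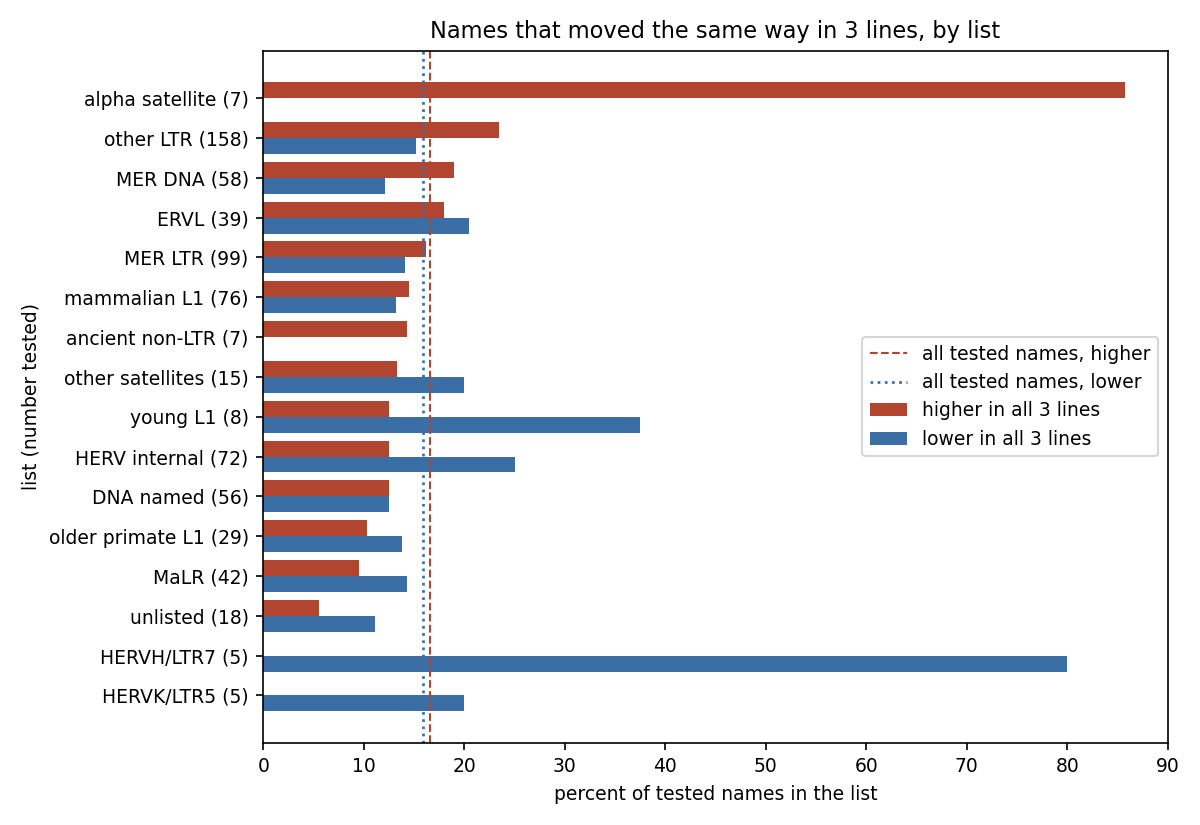
Percent of the tested names in each list that were higher (red) or lower (blue) with dox in all 3 lines, for lists with at least 5 tested names, under TMM scaling; dashed and dotted lines give the shares over all 699, 16.6% and 15.9%. Alpha satellite reaches 85.7% upward and HERVH/LTR7 80.0% downward. The shares count names and not levels, and the summed CPM of the HERVH/LTR7 list rose in PB cells.

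Several abundant or much-studied sequences responded in opposite directions in different lines, and did not pass over the 3 lines. HERVK, among the youngest human endogenous retroviruses, went from 6221 to 4101 CPM in PB cells, from 5050.2 to 7974 in clone 1 and from 6437 to 4171 in clone 2. The PB line and clone 2 were lower with dox and clone 1 was higher, and its fitted change was -0.20 ± 0.21 (edgeR adjusted p = 0.81). LTR5_Hs, its promoter, had the same order of signs (-0.19, 0.56 and -0.38). So did Alu (-0.27, 0.44 and -0.17) and GAPDH (-0.27, 0.12 and -0.10; chromosome 12, 6534517 to 6538371, GRCh38.p14), and ACTB did (-0.0063, 0.21 and -0.19; chromosome 7, 5527148 to 5530601). HERVK and Alu kept these signs in each line under all 6 scalings. LTR5_Hs turned in PB cells with TPM (0.033). ACTB turned in PB cells with TPM (0.22), ACTB and GAPDH scaling (0.17) and total counts (0.082), and in clone 1 with total counts (-0.018) and TPM (-0.19). GAPDH turned in both clones with the same 3 scalings, to between -0.28 and -0.035 in clone 1 and between 0.011 and 0.034 in clone 2. Scaling to ACTB and GAPDH holds the sum of these 2 transcripts constant, so their opposite signs under it are fixed by the scaling. SVA_A, a composite element moved by the L1 machinery, had 0.086, -0.055 and -0.025 and SVA2 0.018, 0.18 and -0.11.

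A further set had large responses in PB cells and small ones in the clones. ACRO1, found on the short arms of acrocentric chromosomes, was scarce and went from 2.73 to 29.3 CPM in PB cells, from 1.49 to 1.53 in clone 1 and from 2.25 to 2.19 in clone 2. MER22 went from 202 to 431 CPM in PB cells, from 183 to 191 in clone 1 and from 195 to 185 in clone 2, and 6kbHsap went from 1529 to 2863 CPM in PB cells, from 1482 to 1557 in clone 1 and from 1496 to 1575 in clone 2; both are counted here among satellites other than alpha by a list of names only. The 3 sequences had fitted changes over 3 lines of 2.09 ± 0.61, 0.40 ± 0.18 and 0.35 ± 0.14 and did not pass (edgeR adjusted p = 0.18, 0.51 and 0.40). ACRO1 passed with total counts, with ACTB and GAPDH scaling and with limma on TPM. All 6kbHsap dox libraries lay above the others, with responses of 0.90, 0.070 and 0.075, so groups without overlap can hold 1 large and 2 small responses. The clone 1 response of 6kbHsap turned with TPM, total counts and ACTB and GAPDH scaling, reaching -0.33.

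Across the 699 sequences, the responses of 2 lines ranked only weakly alike, with a Spearman correlation of 0.21 between PB and clone 1, 0.12 between PB and clone 2 and 0.11 between clone 1 and clone 2. For the 183 sequences with a mean of at least 1000 counts the values were 0.22, 0.38 and 0.29. Pearson correlations in the same order were -0.010, 0.10 and 0.0056 over all 699, and 0.21, 0.43 and 0.28 for the 183. Sequences are not independent, and these are descriptions of libraries that share the same reference of consensus sequences. The typical size of a response was alike in the lines, with a median size of 0.15 in PB cells, 0.15 in clone 1 and 0.14 in clone 2.

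The number of sequences that moved together depended on the scaling. Against 116 higher and 111 lower with TMM, DESeq2 size factors gave 97 and 125, total counts 66 and 68, ACTB and GAPDH scaling 107 and 44, TMM without Alu, ACTB and GAPDH 107 and 119, and TPM 48 and 38. Over the 6 scalings together, 31 sequences were higher and 29 lower in all 3 lines under each of them. With total counts the median response of all sequences was 0.0920 in PB cells, -0.23 in clone 1 and 0.11 in clone 2, and with TPM it was 0.22, -0.37 and 0.13. The rise of the Alu share in clone 1 from 45.4% to 52.5%, and its fall in PB cells from 37.3% to 33.0% and in clone 2 from 41.8% to 40.1%, moves with these shifts, and its part in them was not tested.

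**Figure D5:**
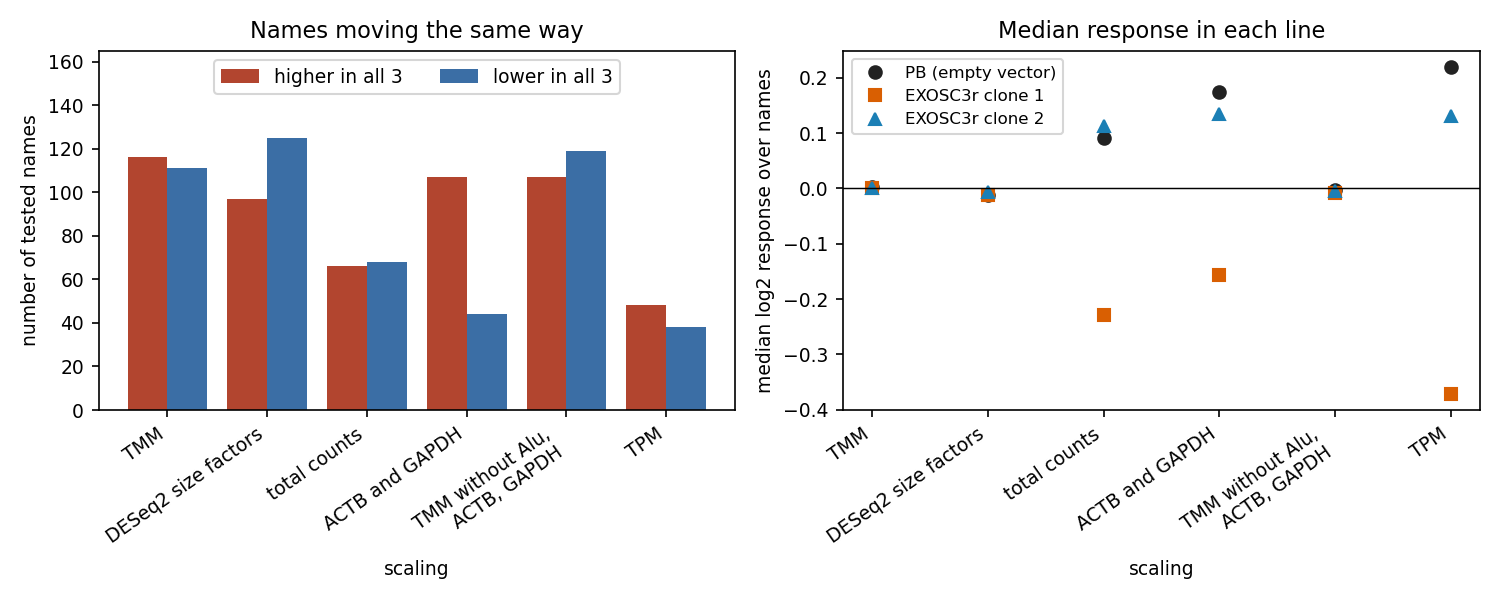
Left, number of the 699 sequences higher or lower with dox in all 3 lines under each scaling; right, median log2 response over all sequences in each line under the same scalings. The medians lie near 0 in each line with TMM and DESeq2 size factors, and clone 1 lies below the other lines with total counts, ACTB and GAPDH, and TPM.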

How the data were processed

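Libraries were stranded and made from total RNA depleted of ribosomal RNA, per the labels' protocols. Salmon 0.13.0, Trimmomatic 0.36 and bcl2fastq 2.17 are named in the submitters' processing notes; options, index, build and the use of strand are not given in the sources used here. Per the file headers, each deposited table gives estimated counts, TPM, length and effective length for 1047 sequences, 1045 of them repeats and the others ACTB and GAPDH transcripts (positions from RefSeq, GRCh38.p14). Estimated counts were deposited without normalisation. TPM was deposited relative to these sequences alone.

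Counts were rounded and fitted with edgeR 4.0.16 (R 4.3.3) with TMM, line as a block and 2 residual degrees of freedom; 699 of 799 sequences with any count were tested. The edgeR test gives no SE. Each SE printed with an edgeR change was calculated as the size of that change over the square root of the test's F statistic. An exact test over 3 pairs could not go below a two-sided p of 0.25. Pairs come from the labels, since both libraries of a line are the same line. The deviations of a line's libraries from their group means correlated at 0.18 (PB), 0.26 (clone 1) and -0.0058 (clone 2) over 699 sequences, and at 0.23, 0.060 and 0.52 for 443 sequences averaging 100 counts or more. Every pair of libraries differed beyond sampling noise (chi-square per degree of freedom 21.0 or more).

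The text may name up to 15 calls per direction, filled to 10 with sequences of at least 10 CPM moving alike in 3 lines by the smallest response. It may also name the alpha satellite, HERVH/LTR7, young L1, HERVK/LTR5 and SVA lists, Alu, ACTB, GAPDH, MER22, 6kbHsap and ACRO1. The comparison, its members and the lists were chosen with earlier results of these data known, and name patterns were adjusted after the names were read. Alternatives were no block, DESeq2 1.42.0, other scalings and filters, limma 3.58.1 on log2 TPM, summed families and each line left out. In simulated counts for 693 sequences with 200 changed, the dox test recovered 65.2% of those changed by 0.5 on the log2 scale, 85.1% at 1 and 98.5% at 2, with 6 false of 172 calls. The simulated spread depended on abundance alone, so sequences whose lines disagreed strongly had no counterpart. Far more sequences were changed than passed in the data, which makes the adjusted threshold easier to reach. These rates are therefore a check of the code and do not describe the calls above.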

Additional observations from a re-analysis of the deposited data

Results flagged for a closer look

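In the edgeR interaction test of PB against the EXOSC3r clones, with the line as a block, 3 of 699 sequences passed (0.429%). The test has 1 residual degree of freedom: the PB arm is 1 line, and a sequence's own spread of the response comes from the 2 clones alone. MER22 responded more in PB cells, with a log2 difference of 1.10 ± 0.092 (SE; edgeR adjusted p = 0.024), with responses of 1.09 in PB cells, 0.062 in clone 1 and -0.075 in clone 2. 6kbHsap did so too, with a difference of 0.83 ± 0.062 (adjusted p = 0.020). HERVH differed by 0.75 ± 0.052 (adjusted p = 0.020), being higher with dox in PB cells and lower in both clones. None of the 3 passed with total counts (adjusted p = 0.998) or without the block (0.076 for MER22 and 6kbHsap and 0.40 for HERVH), and all passed with DESeq2 size factors. With total counts 2 other sequences passed, among them ACRO1 (difference 3.53, adjusted p = 0.0062). There was 1 empty-vector line, so a difference of that line and an effect of the transgene cannot be told apart.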

How the results depend on the processing

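The 12 calls used the line as a block. Without the block (the pairing by line), 0 passed upward and 0 downward, and 0 passed in the interaction test. Summing families gave 3 families higher and 2 lower. Downward calls numbered 1 with total counts, 0 with ACTB and GAPDH scaling and 3 with limma on log2(TPM + 1). Leaving out each line gave 4 to 16 calls upward and 1 to 12 downward. The fit without clone 1 gave 28 calls but no spread of their own to single sequences (its prior degrees of freedom were infinite), so its p-values are not read as support. Sequences higher in all lines numbered 66 with total counts, 48 with TPM and 192 to 198 in the remaining 2 lines when each line was left out; those lower numbered 68 with total counts, 44 with ACTB and GAPDH scaling, 38 with TPM and 186 to 191. With the size minimum of 0.25, those higher numbered 8 with at least 100 counts, 3 with a minimum of 0.5 and 35 to 46 with a line left out. Those lower numbered 6 with TPM, 7 with at least 10 counts in all 6 libraries, 3 with at least 100 counts, 3 with a minimum of 0.5 and 27 to 37 with a line left out. Fewer lines need to match when a line is left out; the other causes were not tested. The fitted change of HERVK turned to 0.015 without the PB line and to 0.030 without clone 2, and was -0.61 without clone 1. That of MER22 was -0.0089 without the PB line and 0.62 without clone 2. With 1 library per line and condition, a response in a single line has no replicate.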

Other observations

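MER58A, a DNA transposon sequence singled out after its values were seen, had estimates that jumped between libraries. It was listed at 0 in PB cells without dox and at 27.1 CPM with dox. In clone 1 it went from 81.3 to 4.09 CPM and in clone 2 from 38.5 to 93.5 CPM. Over the 443 sequences with a mean of at least 100 counts, the Pearson correlation of PB and clone 1 responses was -0.35 with MER58A and 0.34 without it. The Spearman correlation, which uses ranks, hardly changed (0.16 with MER58A and 0.17 without it).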
